A study of Mus musculus with 4 samples.

Results

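Of the 3962 peaks of biotin-tagged Myc (Bio-Myc) in mouse embryonic stem cells (ESCs), 485 overlapped no peak of Max and lay away from promoters. The sites were chosen by 2 measured values of these lists, the overlap with Max and the distance to genes: a peak was taken when it shared no base with a Max peak and did not reach the 1 kb on either side of a transcription start site (TSS) of any annotated gene, coding or not, on the autosomes and chromosome X. The 485 distal Bio-Myc sites without Max were thus drawn from 995 Bio-Myc peaks without a Max peak and from 978 distal Bio-Myc peaks, and the other 493 distal peaks, which overlapped a Max peak, were the class closest to them. The Bio-Myc ChIP-Seq was made in 1 stable clone of E14 ESCs that carry the BirA biotin ligase and express Myc with an N-terminal Biotag from the ubiquitous EF1α promoter, and the chromatin was captured on streptavidin beads. The Max ChIP-Seq was made with an antibody against endogenous Max in parental wild-type E14 ESCs, so that a missing Max peak was read from cells other than those that gave the Bio-Myc peak. Both were grown with serum and LIF. The Bio-Mock ChIP (cells without tagged Myc) and the IgG ChIP were the controls for calling, and no list of theirs was used here. For the mock cells the methods give BirA-ESCs and the sample label gives parental wild type. Each ChIP was 1 library without a replicate and the number of reads is unknown, so no value below has an error between cultures, and the 95% Wilson intervals cover counting error over peaks only. The lists hold no expression values, so the ESC label could not be checked against marker genes.

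Myc belongs to the basic helix-loop-helix leucine zipper family of transcription factors. It binds DNA as a heterodimer with Max, and the preferred site of the dimer is the palindromic E-Box, CACGTG. Max also forms dimers with itself and with the Mxd, Mnt and Mga proteins, which compete for the same sites. Related hexamers that differ from the E-Box in a single base, such as CACGCG and CACATG, are known as non-canonical E-Boxes. In ESCs Myc acts with LIF signalling in self-renewal, and it is known for binding at CpG-rich promoters.

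The sites with the highest scores are shown first, because they are the strongest distal Bio-Myc peaks at which Max was not called. The score of a peak is the negative log10 of its MACS p-value times 10, and the lowest possible value, 80, is the limit of 1e-08. For 8 of the 15 highest-scoring sites the E-Box nearest to the peak centre is printed in capitals, with 20 bases on each side. The windows are on the plus strand of mm9 and named after the nearest protein-coding gene. The site nearest to Grp also held an E-Box, which is not printed.
Sfmbt2, chr2:10287297-10287342: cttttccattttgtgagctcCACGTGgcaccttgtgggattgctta
Tln2, chr9:67481953-67481998: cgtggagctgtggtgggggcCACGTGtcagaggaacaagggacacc
Fkbp9, chr6:56787087-56787132: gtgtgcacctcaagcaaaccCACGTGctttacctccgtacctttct
Zfp870, chr17:33016179-33016224: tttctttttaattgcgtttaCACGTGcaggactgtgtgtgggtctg
Xkr8, chr4:132291144-132291189: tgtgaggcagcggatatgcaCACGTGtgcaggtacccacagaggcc
Mcm9, chr10:53300297-53300342: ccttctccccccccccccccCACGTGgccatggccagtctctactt
Gm16253, chr3:96375403-96375448: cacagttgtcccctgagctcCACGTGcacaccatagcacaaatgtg
Rars, chr11:35653366-35653411: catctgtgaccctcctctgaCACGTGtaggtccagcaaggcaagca

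The 3 windows of the next group come from sites of the same rank that held no E-Box but held the non-canonical E-Box CACATG. The site nearest to B930094E09Rik was another such site, and its window is not printed. CACATG reads CATGTG on the plus strand in each of the 3 printed windows, and these letters are in capitals.
Ift52, chr2:162857395-162857440: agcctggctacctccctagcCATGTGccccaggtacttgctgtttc
Clstn3, chr6:124425558-124425603: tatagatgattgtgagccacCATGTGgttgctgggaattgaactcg
Frrs1, chr3:116564442-116564487: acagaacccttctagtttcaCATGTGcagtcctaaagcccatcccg

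The last group holds the E-Boxes beside genes of the pluripotency network, which are described further on, and 1 E-Box of the only site with 3 of them, in an intron of Tshz2, with AY702102 as the nearest coding gene. The E-Box is again in capitals. Tet1 had a site in an intron and another upstream of its TSS.
Mybl2, chr2:162887703-162887748: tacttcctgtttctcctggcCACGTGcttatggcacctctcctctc
Tet1, intron, chr10:62358162-62358207: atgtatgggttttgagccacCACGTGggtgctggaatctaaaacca
Tet1, upstream, chr10:62365159-62365204: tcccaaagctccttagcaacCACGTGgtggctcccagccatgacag
Tet2, chr3:133203011-133203056: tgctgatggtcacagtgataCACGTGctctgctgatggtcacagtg
Dppa3, chr6:122612549-122612594: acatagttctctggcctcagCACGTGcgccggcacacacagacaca
Tbx3, chr5:120173651-120173696: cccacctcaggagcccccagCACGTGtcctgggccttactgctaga
Klf4, chr4:55488215-55488260: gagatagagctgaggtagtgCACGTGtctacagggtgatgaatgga
Utf1, chr7:147124478-147124523: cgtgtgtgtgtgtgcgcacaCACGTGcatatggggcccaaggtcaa
Zfp281, chr1:138606974-138607019: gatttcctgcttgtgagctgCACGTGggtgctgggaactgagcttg
Tshz2, chr2:169868850-169868895: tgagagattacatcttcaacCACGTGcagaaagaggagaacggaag

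The printed E-Boxes differed in how close they lay to the middle of the peak. The distance from the centre was 7 bp at Klf4 and 13 bp in the Tshz2 intron, but 516 bp at Dppa3 and 707 bp at Rars. Over the 208 sites with an E-Box anywhere in the peak, the nearest one lay a median of 124.5 bp from the centre (quartiles 44 and 211.5 bp), and in 88 sites it lay within 100 bp.

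The distal sites without Max had the lowest median score of the 4 classes of Bio-Myc peak. It was 103.5 (quartiles 90.01 and 131.9), against 119.3 for the distal peaks with Max, 108.5 for the promoter peaks without Max and 151.5 for the promoter peaks with Max. They were also narrower, with a median width of 820 bp against 941 bp for the distal peaks with Max, and their central 500 bp held a median of 49.8% G and C against 55.4%. The rule used the overlap with Max and the distance to a TSS, so these values are a description with no test. The share of distal Bio-Myc peaks that lacked Max decreased with the score: it was 49.6% (485 of 978) at 1e-08, 41.1% (200 of 487) at 1e-11, 37.7% (90 of 239) at 1e-15 and 28.7% (31 of 108) at 1e-20.

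**Figure D1:**
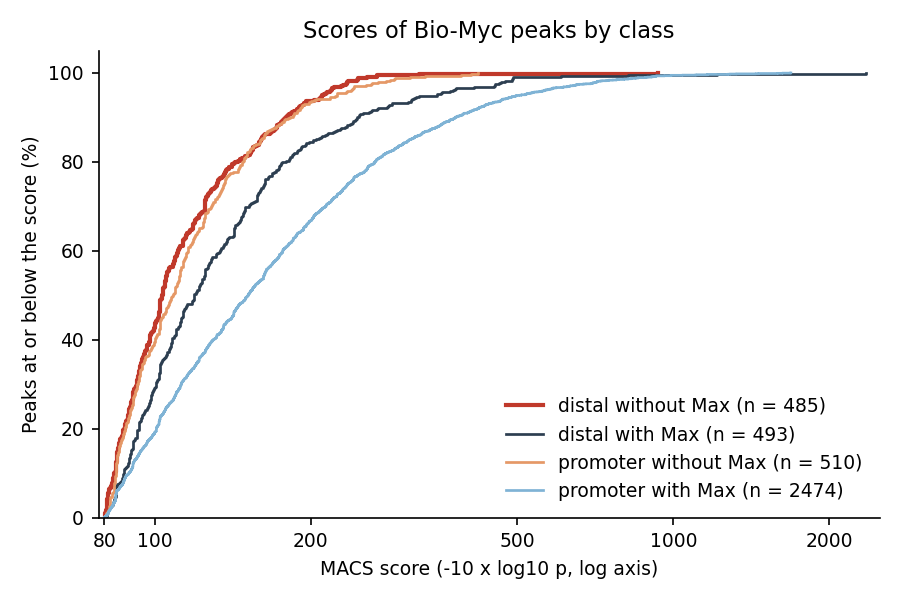
Cumulative share of Bio-Myc peaks (y axis, %) at or below each MACS score (x axis, −10 times log10 of p, log axis) for the 4 classes of peak, each from 1 library. The distal sites without Max (median 103.5) run beside the promoter peaks without Max (median 108.5) and to the left of both classes with Max (medians 119.3 and 151.5).

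A single site stood far above the others. The peak at chr2:10286406-10287527 reached a score of 933.35, which was 2.89 times the second highest score of 323.1. It lay in an intron of the lincRNA Gm13261, 4609 bp upstream of a TSS of Sfmbt2, which encodes a Polycomb group protein, and the nearest Max peak was 63394 bp away. Its only E-Box, printed above, was 353 bp from the centre. The second site, chr9:67481605-67482462, lay between genes, 74094 bp upstream of Tln2, which encodes the cytoskeletal protein talin 2, and 196424 bp from the nearest Max peak, with the E-Box 58 bp from the centre.

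The other sites among the 15 highest scores reached 228.59 to 268.09. Introns held the sites of Ldb3 (268.09), Ift52 (267.77), Fkbp9 (256.64), Smpdl3b (246.12, nearest TSS that of Xkr8), Mcm9 (245.62) and Wwc1 (234.75, nearest TSS that of Rars). Ift52 encodes a protein of ciliary transport and Mcm9 a helicase of DNA repair. Between genes were the sites nearest to Zfp870 (249.99), Grp (246.19), Clstn3 (235.8), Gm16253 (234.78), Frrs1 (230.6) and B930094E09Rik (228.59). Distances to Max varied widely among them, from 408 bp at Xkr8 and 878 bp at Rars to 123782 bp at Ldb3 and 198146 bp at Frrs1. The site of Ldb3 held neither an E-Box nor a CACATG.

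Most sites were far from the next Max peak. The gap to it had a median of 20840 bp (quartiles 5838 and 54564 bp), and 25 of the 485 sites (5.15%) lay within 1 kb, 106 (21.9%) within 5 kb and 352 (72.6%) within 50 kb. On the inner side of the limit, the sites nearest to a Max peak were those beside Tha1 (20 bp), Arhgap5 (173 bp), Tnpo2 (179 bp), Bdh1 (221 bp) and Nf2 (222 bp), with scores of 81.16 to 124.91. On the outer side, some distal peaks shared few bases with a Max peak. They lay beside Golm1 (33 bp), Diras1 (268 bp), Pcdh1 (272 bp) and Nap1l1 (306 bp, the whole of that peak), with scores of 95.42 to 185.19. The limit towards promoters was held by sites 1022 bp from a TSS of Suclg2, 1040 bp from S1pr2, 1051 bp from 2010107H07Rik, 1058 bp from Tor3a and 1079 bp from Srsf3. Just outside it were Bio-Myc peaks 981 bp from Mbd3, 964 bp from Elf2, 952 bp from Ino80d, 931 bp from Ddc and 931 bp from Mycn.

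The chromosomes differed in how many of their distal Bio-Myc peaks lacked Max. The share was lowest on chromosome 8 with 15.7% (8 of 51, 95% interval 8.17 to 28.0%), where the Max list was also longest with 1357 peaks. On the other autosomes it ran from 34.5% (10 of 29 on chromosome 12) to 66.7% (30 of 45 on chromosome 3), and on chromosome X it was 87.5% (7 of 8). The number of Max peaks on a chromosome and the share without Max use the same list, so they are set side by side with no test.

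Relative to genes, the sites were intronic more often and exonic less often than the distal peaks with Max. The centre lay in an intron in 247 sites (50.9%, 46.5 to 55.4%) against 171 of 493 peaks with Max (34.7%, 30.6 to 39.0%; Fisher's exact test, two-sided, p = 3.14e-07). It lay in an exon in 19 sites (3.92%, 2.52 to 6.04%) against 70 (14.2%, 11.4 to 17.6%; Fisher's exact p = 1.28e-08). The difference was in coding sequence, with 6 sites (1.24%) against 54 peaks (11%; Fisher's exact p = 3.08e-11), whereas untranslated regions held 11 sites (2.27%) and 16 peaks (3.25%; Fisher's exact p = 0.436). Between genes were 219 sites (45.2%) and 252 peaks with Max (51.1%; Fisher's exact p = 0.0638). First introns of coding transcripts held 114 sites (23.5%) and 94 peaks (19.1%; Fisher's exact p = 0.101).

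The 6 sites in coding sequence were in Flt4 (score 132.1), Vps18 (103.59), Rnpepl1 (102.51), Ercc4 (84.74), Btbd17 (84.17) and Usp30 (80.8). Flt4 encodes a receptor for vascular endothelial growth factors, Vps18 a protein of vesicle sorting, Ercc4 a nuclease of DNA repair and Usp30 a mitochondrial deubiquitinase. An exonic site that was not in coding sequence had the highest score of the 19, in the untranslated region of Fam131a (176.82). These sites were named after the counts had been seen.

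The gap to the nearest TSS of any gene had a median of 9892 bp (quartiles 4609 and 21511 bp), against 8578 bp for the distal peaks with Max, and it was over 50 kb for 40 sites. Of the 485 sites, 239 were upstream and 246 downstream of the nearest protein-coding TSS. The next Bio-Myc peak was a median of 49964 bp away. In 49 sites it was within 1500 bp, and there it was another distal site without Max in 26, a peak with Max in 18 (9 distal and 9 at a promoter) and a promoter peak without Max in 5. Runs of sites no more than 10 kb apart numbered 24 and took in 50 sites, with at most 3 sites in a run.

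The E-Box was less frequent in these sites than in the distal peaks with Max, and far more frequent than in the genome. Motifs were counted on both strands in the central 500 bp, so that each peak gave the same length of sequence. This window was set on the middle of the peak, reached past the ends of narrower peaks and left out the ends of wider ones. The E-Box was present in 165 of 485 sites (34.0%, 29.9 to 38.4%), in 243 of 493 distal peaks with Max (49.3%, 44.9 to 53.7%) and in 4.83% of the 5111018 windows of 500 bp that tile the genome, a ratio to the genome of 7.04 and 10.2. The difference between the classes was significant (Fisher's exact test, two-sided, p = 1.52e-06, Benjamini-Hochberg adjusted p = 1.52e-05 over 30 motifs). With Bio-Myc peaks at 1e-11 or lower it did not pass the test, with 41.5% of 200 sites against 49.5% of 287 peaks (Fisher's exact p = 0.0963), and at 1e-15 it did, with 40% of 90 against 56.4% of 149 (Fisher's exact p = 0.0164).

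Several E-Boxes in a peak were also less frequent without Max. In the whole peak 277 sites held no E-Box, 174 held 1, 33 held 2 and 1 held 3. With 2 or more E-Boxes were 34 sites (7.01%) against 101 distal peaks with Max (20.5%; Fisher's exact p = 8.61e-10), where the wider peaks with Max also offered more sequence. The site with 3 E-Boxes, chr2:169868501-169869271, had a score of 171.49 and lay 1967 bp from a Max peak.

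Other motifs differed between the classes as well. Of the 30 motifs tested, 5 (16.7%) differed at an adjusted p under 0.05, 4 lower and 1 higher in the sites without Max, and 8 had an unadjusted p under 0.05. The non-canonical E-Box CACGCG was present in 6.60% of the sites against 24.5% of the peaks with Max and 1.38% of the genome windows (Fisher's exact test, adjusted p = 1.21e-13). The GC box GGGCGG, the site of Sp and Klf factors at CpG-rich promoters, was present in 24.7% against 40.2% (Fisher's exact test, adjusted p = 4.27e-06). The palindrome TGCGCA, which served with 6 others as a control for CpG content, was present in 5.36% against 13.8% (Fisher's exact test, adjusted p = 5.14e-05). The motif that was higher in the sites without Max was CACATG, in 55.3% (50.8 to 59.6%) against 44.2% (39.9 to 48.6%; Fisher's exact test, adjusted p = 0.00415), beside 34.2% of the genome windows.

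The classes differed in G and C content, and the motifs were therefore compared again with the peaks with Max standardised to the G and C content of the sites without Max, which was chosen after the data were seen. The E-Box and CACGCG remained lower in the sites without Max, at 34.0% against 48.9% and 6.60% against 13.8% (Mantel-Haenszel chi-square test over peaks, adjusted p = 0.000133 and 0.000281 over the 24 motifs present in 10 or more peaks of both classes). The other calls were lost. By the same chi-square test, CACATG was at 55.3% against 53.6% (adjusted p = 0.72), the GC box at 24.7% against 25.4% (adjusted p = 0.994) and TGCGCA at 5.36% against 9.91% (adjusted p = 0.077).

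Motifs of the ESC factors did not pass the test between the classes. The Esrrb motif AAGGTCA was present in 15.3% of the sites, 12.8% of the peaks with Max and 9.23% of the genome windows, and the Klf motif GGGTGTGG in 9.90%, 8.11% and 2.99% (Fisher's exact adjusted p = 0.517 and 0.557). Another Klf motif, GGGCGTGG, went the other way, with 5.155% of the sites and 6.90% of the peaks with Max (Fisher's exact adjusted p = 0.517). So did the Stat motif TTCCNGGAA, with 2.06% and 2.64% (Fisher's exact adjusted p = 0.749). The octamer ATGCAAAT of Pou factors was in 3.51% of the sites, and the Sox motif AACAATG in 6.19%, both lower than in the genome windows with 4.36% and 9.83%. The peaks with Max were also below the windows, with 2.43% and 5.68%. The genome windows were not matched to the peaks for G and C content. The AP-1 motif TGACTCA, the site of Fos and Jun factors, was in 13.6% of the sites against 9.13% of the peaks with Max and 7.68% of the windows (Fisher's exact test, adjusted p = 0.127). The 7 control palindromes were present in 1.03 to 8.04% of the sites, 1.56 to 4.38 times their share in the genome, below the ratio of 7.04 of the E-Box. Matching letters are a description and do not show that a factor was bound.

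**Figure D2:**
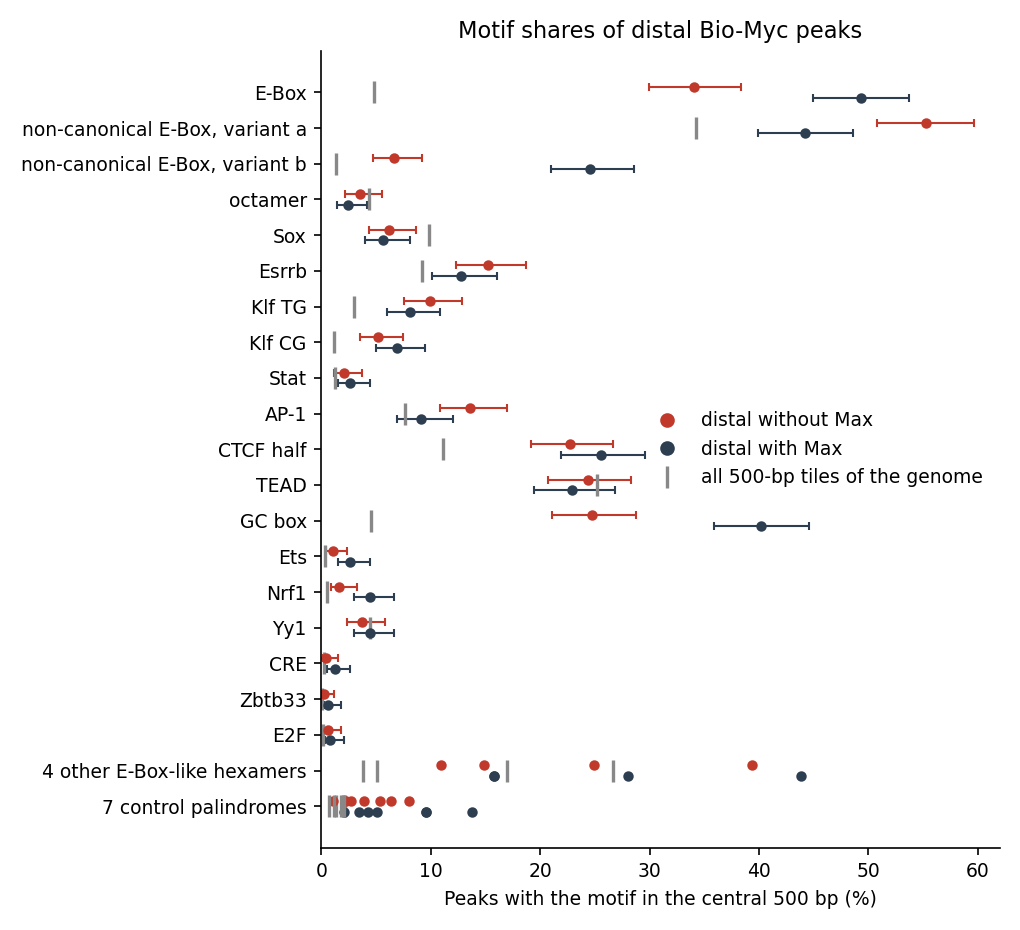
Share of distal Bio-Myc peaks (x axis, %) with each motif (rows) in the central 500 bp, for 485 peaks without Max and 493 with Max, with 95% Wilson intervals where a row is 1 motif. Grey ticks give the share of all genome windows of 500 bp, variant a is CACATG and variant b is CACGCG. The E-Box (34.0% against 49.3%), variant b (6.60% against 24.5%) and the GC box (24.7% against 40.2%) are lower without Max, and variant a (55.3% against 44.2%) is higher.

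Within the sites, the E-Box was concentrated at the centre of the peak. It occurred 0.948 times per kb within 100 bp of the centre and 0.186 times per kb at 500 to 1000 bp, a ratio of 5.11, and in the distal peaks with Max 1.66 and 0.197 times per kb, a ratio of 8.45. CACATG occurred 2.09 and 1.07 times per kb in the sites without Max (ratio 1.96) and 1.59 and 0.968 times in the peaks with Max (ratio 1.65). Copies and not peaks were counted, and single sites nearest to Camk2b, Ramp3 and Arhgap12 held 21, 19 and 13 CACATG in the central 500 bp. Counted over peaks, CACATG lay in the central 200 bp of 143 sites (29.48%) and 123 peaks with Max (24.95%; Fisher's exact p = 0.114). In the central 500 bp, 352 sites (72.6%, 68.4 to 76.4%) held an E-Box or a CACATG, and so did 370 peaks with Max (75.1%, 71.1 to 78.7%; Fisher's exact p = 0.384). CACATG alone was in 34.2% of the genome windows. The share with either motif was not counted in the genome or standardised to G and C content, so the like shares do not show that CACATG takes the place of the E-Box. The ratios of centre to surroundings are over motifs of 1 list and have no test.

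**Figure D3:**
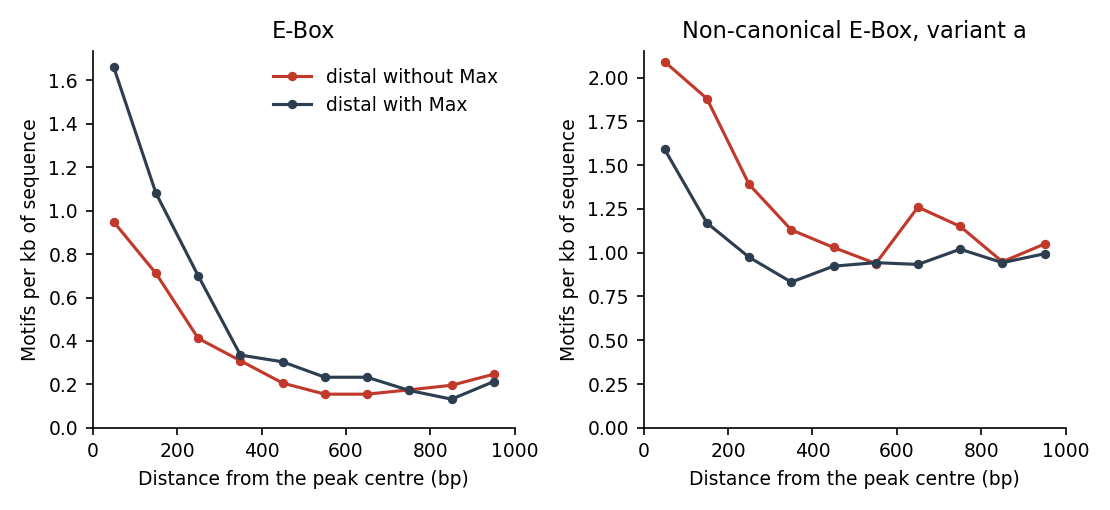
Number of E-Boxes (left) and of CACATG, variant a (right), per kb of sequence (y axis) by distance from the peak centre in steps of 100 bp (x axis) in 485 distal Bio-Myc peaks without Max and 493 with Max. Both motifs are most frequent within 100 bp of the centre, the E-Box at 0.948 per kb without Max and 1.66 with Max, CACATG at 2.09 without and 1.59 with Max. Copies are counted and not peaks, so a peak with many copies counts many times.

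The E-Box was found at sites of every score and place. In 4 equal groups by score, from the lowest to the highest, it was 31.4%, 27.3%, 36.7% and 40.7% of 120 to 123 sites each, with 95% intervals that overlapped between neighbouring groups. The distal peaks with Max within the same limits had 41.7%, 49.5%, 50.9% and 51.0%, above the sites without Max in each group, and in the second group alone the intervals did not overlap. Sites in introns held an E-Box in 33.6%, sites between genes in 34.3% and sites in exons in 7 of 19. With a Max peak within 5 kb the share was 28.3% (30 of 106, 20.6 to 37.5%), and with the Max peak farther away 35.6% (135 of 379, 31.0 to 40.6%).

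**Figure D4:**
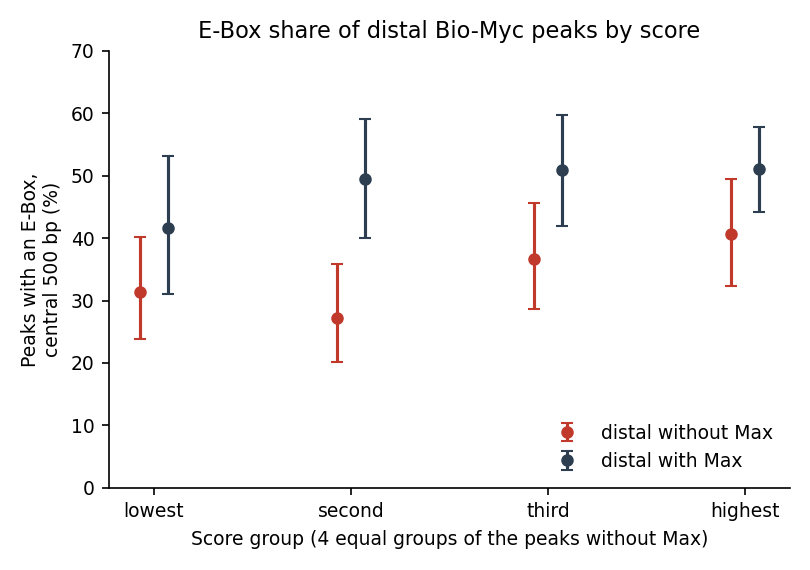
Share of distal Bio-Myc peaks with an E-Box in the central 500 bp (y axis, %, with 95% Wilson intervals) by score group (x axis) for peaks without and with Max, with the limits set on the peaks without Max. In each group the peaks without Max (27.3 to 40.7%) are lower than those with Max (41.7 to 51.0%), and the intervals overlap in all groups except the second.

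The sites were nearest to the TSSs of 443 protein-coding genes. Most of these, 408, had 1 site, 31 had 2 and 4 genes had more. Slc25a12, which encodes a mitochondrial carrier of aspartate and glutamate, had 5 sites between chr2:71171839 and chr2:71215180, 4 in its introns and 1 upstream of the gene, with scores of 93.93 to 217.92, and 2 of them held an E-Box. Tbc1d7, which encodes a subunit of the Tsc complex, had 4 sites 11953 to 44491 bp upstream, with scores of 92.48 to 138.97, and 2 of them held an E-Box. Mdm4, which encodes an inhibitor of p53, had 3 sites in its introns within chr1:134915665-134918551, with scores of 98.1 to 104.32 and no E-Box. St6galnac3, which encodes a sialyltransferase, had 3 intronic sites with scores of 105.58 to 163.38, 1 of them with an E-Box.

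Many of the nearest genes carried Max or Bio-Myc at the promoter as well. A Bio-Myc peak lay within 1 kb of a TSS in 117 of the 443 genes (26.4%, 22.5 to 30.7%), beside 14.6% of all 22380 protein-coding genes. A Max peak lay there in 236 genes (53.3%, 48.6 to 57.9%), beside 34.8% of all protein-coding genes. Both were present in 93 genes and neither in 183. Counted over peaks, the nearest gene had Bio-Myc at its promoter for 27.4% of the sites without Max and 26% of the distal peaks with Max (Fisher's exact p = 0.614). It had Max there for 53.8% and 58.4%, given with no test because the same Max peaks set the classes. Both kinds of distal peak were nearest to the same gene in 46 cases.

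The sites beside genes of the pluripotency network were the most numerous among 12 gene lists. A site was assigned to a protein-coding gene that held its centre or had the nearest TSS, which gave 488 of 22380 genes (2.18%), and 503 genes (2.25%) for the distal peaks with Max. Of 36 pluripotency factors, 12 were assigned a site without Max (33.3%, 20.2 to 49.7%) and 4 a distal peak with Max (11.1%, 4.41 to 25.3%). Esrrb and Zfp281 were assigned both kinds of peak. The list was chosen with earlier results of these data known, so these counts are a description with no test. The 12 genes had 14 sites, of which 9 held an E-Box. Pou5f1 and Nanog, which were on the list, were assigned none. A site outside a gene and nearer to the TSS of another was not counted for it, so sites in their neighbourhood are not excluded.

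The 14 sites beside pluripotency factors had scores of 83.1 to 137.29. Introns held the sites of Esrrb (137.29, 905 bp from a Max peak), Mybl2 (134.46), Tet1 (132.45) and Tet2 (105.82 and 90.06). Esrrb encodes an orphan nuclear receptor of the naive network, Mybl2 a Myb family regulator of the cell cycle, and Tet1 and Tet2 encode enzymes that oxidise 5-methylcytosine. A second Tet1 site (84.12) lay 3141 bp upstream of the TSS. Far from their genes were the sites of Sox2 (108.48), 105403 bp downstream, Zfp281 (83.1), 85004 bp downstream, Klf4 (105.73), 55931 bp downstream, Tbx3 (125.23), 42716 bp downstream, and Dppa3 (130.84), 35673 bp downstream of the TSS.

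Closer to their genes were the sites of Trim71 (125.66), 4476 bp upstream, and Utf1 (103.1), 4946 bp upstream in an intron of Kndc1, whereas that of Sall4 (94.47) was 23134 bp upstream. Sox2, Klf4, Tbx3 and Sall4 encode transcription factors of the ESC network, and Trim71 an RNA-binding protein. The sites of Esrrb, Sox2, Trim71, Sall4 and the weaker site of Tet2 held no E-Box. Those of Tbx3 and the stronger site of Tet2 held 2 each. The gap to the nearest Max peak was 4270 bp at the stronger Tet2 site, 4288 bp at Klf4 and 4290 bp at Trim71, and it was over 50 kb at Dppa3 (54123 bp), Tbx3 (52260 bp), Mybl2 (61413 bp) and Sox2 (90957 bp).

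The other lists had 0 to 3 genes with a site. Of 31 Polycomb genes, 3 had one (9.68%, 3.35 to 24.9%): Eed (104.75, with an E-Box) and Cbx7 (92.19) in introns, and Aebp2 (101.97) 1218 bp upstream of the TSS. Eed and Aebp2 encode subunits or cofactors of Polycomb repressive complex 2. Sfmbt2, which lay nearest to the site with the highest score, was not on that list and is not in the count. Of 30 Fgf and MAPK genes, 3 had a site (10%), Dusp5 (90.8, 2 E-Boxes), Fgfr1 (84.84) and Fgfr2 (202.67, with an E-Box, and 82.29). The sites counted for Fgfr2 lay in the span of a single long annotated transcript, and the nearest TSSs were those of Ctbp2 and Fam175b. Of 35 TGF-beta and BMP genes, 2 had a site (5.71%), Smad7 (125.23, 2 E-Boxes) and Ski (97.62, with an E-Box). The distal peaks with Max were assigned to 1 of the 31 Polycomb genes, 4 of the 30 Fgf and MAPK genes and 1 of the 35 TGF-beta and BMP genes. Cbx7, Dusp5, Fgfr1 and Smad7 were assigned both kinds of peak.

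Among the 45 cell cycle genes were Mdm4 and Ccne1 (4.44%), with 4 sites and no E-Box. A single gene had a site in the lists of LIF and Stat3 signalling (Pim1 of 15 genes, 97.98, with an E-Box), of the Myc network (Myc of 14 genes, 89.71), of histone methylation and acetylation (Setd2 of 46, 106.39), of Wnt signalling (Tcf7l2 of 37, 96.74, with an E-Box) and of lineage regulators (Pax2 of 39, 80.97). The Myc site lay between genes 19168 bp past the end of the gene, and no exon of Myc, Mycn or Max was covered by a site. None of 36 chromatin remodelling genes and none of 39 ribosome biogenesis genes had a site. A count of 0, read as up to 3 counts, allows a share of up to 8.33% and 7.69% (95% Wilson upper limits 9.64% and 8.97%), which includes the 2.18% of all genes. The distal peaks with Max were assigned to 5 of the 36 and to 2 of the 39. Their counts were 4 of 15 for LIF and Stat3 signalling, 5 of 46 for histone methylation and acetylation and 4 of 37 for Wnt signalling. They were 4 of 45 for the cell cycle, with Ccne1 assigned both kinds of peak, 2 of 14 for the Myc network and 0 of 39 for lineage regulators.

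**Figure D5:**
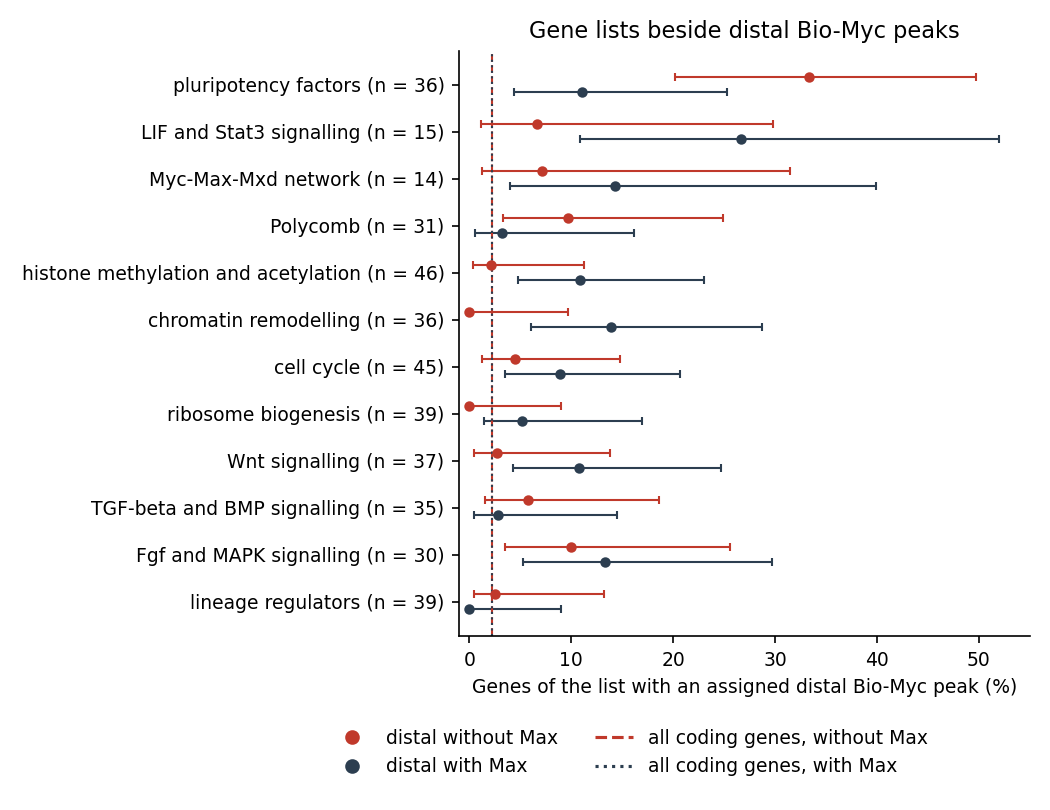
Share of the genes of 12 lists (x axis, %, with 95% Wilson intervals and n the genes of the list) that held or were nearest to a distal Bio-Myc peak without Max or with Max, with the shares of all protein-coding genes as lines at 2.18% and 2.25%. The pluripotency factors have 33.3% without Max and 11.1% with Max, and chromatin remodelling and ribosome biogenesis have 0 without Max.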

How the data were processed

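The Bio-Myc and Max peak lists were analysed, 1 ChIP-Seq library each, out of 4 samples. The deposited peaks are the authors' MACS 1.4.1 calls at a p-value limit of 1e-08, with the mock or IgG ChIP as the control. They rest on Bowtie 0.12.7 alignments to mm9, free of duplicates, in which each read had 1 position in the genome and no more than 2 mismatches. CASAVA 1.8 is named in the submitters' processing notes. The deposited score of each peak is −10 times log10 of its p-value. Depth is unknown. Repeats are mostly lost when a single hit is required, and more reads give more peaks at the same limit.

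Peaks overlapped when they shared 1 bp. TSSs, exons and genes were those of GENCODE M1 (Ensembl 65, 37310 genes, 86879 TSSs), and sequence that of NCBIM37, the assembly of mm9. Motifs were counted on both strands in the central 500 bp, and E-Box or place shares were compared between distal peaks without and with Max by Fisher's exact test, two-sided, over peaks, which are not replicates, with Benjamini-Hochberg adjustment over the 30 motifs. Intervals are 95% Wilson intervals. Named were the 15 highest scores, sites with 3 or more E-Boxes, sites at the limits of the rule, list genes with an E-Box or a high score, and genes with 3 or more sites. Other genes named were chosen after their values were seen, and 2 sites that this rule names are not reported here. The sites, motifs and 12 gene lists were chosen with earlier results of these data known. Alternatives were other overlap rules, p-value limits, promoter definitions, windows, scores and chromosomes. Python 3.11.15, numpy 2.4.6, scipy 1.17.1, statsmodels 0.14.6 and matplotlib 3.10.9 were used, and 10 of 10 steps tested on simulated data returned the known answers. Coordinates are 1-based.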

Additional observations from a re-analysis of the deposited data

How the results depend on the processing

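The number of distal Bio-Myc peaks without Max stayed within 1.5 times of 485 under the other overlap rules, the stricter Max list and the other promoter definitions (347 to 679), and was 200 with Bio-Myc peaks at 1e-11 or lower and 90 at 1e-15 or lower. The E-Box difference of -15.27 percentage points ranged from -11.88 to -16.95 over the alternatives that passed the test, among them standardisation to the score, to G and C content and to the CpG ratio, and was -7.98 points (Fisher's exact p = 0.0963) with Bio-Myc peaks at 1e-11 or lower, where the cause was not tested and fewer peaks entered. The exonic difference of -10.28 points stayed past the threshold in all 11 alternatives (-7.98 to -12.68). None of these standardised the exonic share to the score, to G and C content or to the CpG ratio, in which the classes differed. The number of motifs that differed, 5, was 2 at 1e-11, 2 at 1e-15, 9 with TSSs of protein-coding genes only, 3 in the central 200 bp, 8 in the central 1000 bp, 16 in whole peaks, which differ in width, and 2 after standardisation to G and C content. It was 5 to 7 in the other alternatives, including the leaving out of chromosome 8. The nearest coding genes numbered 389 within 50 kb and 442 with the gene that holds the peak first, against 443. The E-Box and exonic differences kept their direction in every alternative run. Motifs that passed no test could turn: Esrrb was in 15.3% of the sites without Max and 12.8% of the distal peaks with Max, and in 16.3% of the latter after standardisation by G and C; the cause was not tested. Standardisation to G and C content and to the CpG ratio, and chromosome 8 for exons and motifs, were added after seeing the data. Leaving out soft-masked repeats was not run, because the reference sequence used is not soft-masked. No paired analysis was possible because each ChIP is 1 library without replicate numbers. The depth, which is unknown, limits how firmly a missing Max peak can be read as missing binding.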

Other observations

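The bases beside the E-Box were counted in the central 500 bp. Of the 183 E-Boxes in the sites without Max, 40 were ACACGTGG (21.9%, 95% Wilson interval 16.5 to 28.4%), 36 were CCACGTGG (19.7%, 14.6 to 26%) and 33 were CCACGTGC (18%, 13.1 to 24.2%), each counted with its reverse complement. Of the 311 E-Boxes in the distal peaks with Max, 45 were ACACGTGG (14.5%, 11 to 18.8%), 82 were CCACGTGG (26.4%, 21.8 to 31.5%) and 77 were CCACGTGC (24.8%, 20.3 to 29.8%). The intervals overlapped for each of the 3 octamers, and the difference was not tested. Of the 451 CACATG in the sites without Max, 94 were GCACATGG (20.8%) and 74 were CCACATGG (16.4%), against 51 each of 321 (15.9%) in the peaks with Max. Of the 16 flanked forms, GCACATGA alone had intervals that did not overlap, with 27 of 451 (5.99%, 4.15 to 8.57%) against 2 of 321 (0.623%, 0.171 to 2.24%). GCACATGC went the other way, with 36 (7.98%) against 42 (13.1%). Both were chosen after their values were seen and were not tested. The intervals are over copies of the motif, and copies in the same peak are not independent. The 451 copies include 21, 19 and 13 from single sites nearest to Camk2b, Ramp3 and Arhgap12. The number of peaks behind each flanked form was not counted, so the intervals do not show a difference between the classes.

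The printed windows of Zfp281 and Clstn3 share letters next to the motif, which were counted after they had been seen. The letters TGCTGGGA, 2 bases past the motif on the strand read, followed 8 of the 183 E-Boxes in the central 500 bp of the sites without Max (4.37%) and 3 of the 90 E-Boxes at 500 to 1000 bp from the centre (3.33%). In the form CATGTG the non-canonical E-Box was followed by them in 15 of 451 cases in the central 500 bp (3.33%, 2.03 to 5.41%). At 500 to 1000 bp it was 57 of 517 cases (11%, 8.61 to 14%), so this longer string was less frequent at the peak centres than around them. The distal peaks with Max went the same way, with 6 of 321 cases (1.87%) and 34 of 473 (7.19%).

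The highest-scoring site, upstream of Sfmbt2, held 5 CCAAT, the letters bound by NF-Y, in its central 300 bp counted on both strands. Of the 485 sites, 158 held 1 or more and 2, this site included, held 5. The count was made after its sequence had been seen.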
